A study of Yarrowia lipolytica with 11 samples.

Results

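Transcript levels of a PEX10-deleted, DGA1-overexpressing mutant of Yarrowia lipolytica, an oleaginous yeast, were compared with those of the wild type in cultures that received no hexanoic acid. The comparison was chosen by label alone. It set 2 untreated mutant libraries beside 3 untreated wild-type libraries, 5 of 11 in the series, and covered all 7135 genes of the deposited count table. Per the labels, the mutant lacks PEX10 and carries a plasmid for overexpression of DGA1, and both strains were grown from separate colonies in YPC medium to exponential phase. The promoter on the plasmid, the background of the wild type and whether it held an empty plasmid, and whether the mutant is a single clone, are not stated in the labels. The remaining 6 libraries came from the same strains with 1 g/L hexanoic acid, and they entered the fit to help estimate the spread.

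PEX10 is a peroxin, a protein of peroxisome assembly. It is a RING-finger protein of the peroxisomal membrane that acts with other RING-finger peroxins, PEX2 among them, in recycling the import receptor of matrix enzymes. Peroxisomes hold the beta-oxidation of fatty acids in yeasts, and the acetyl-CoA they release is used through the glyoxylate cycle and the mitochondrial TCA cycle. DGA1 is a diacylglycerol acyltransferase, which adds the last acyl chain of triacylglycerol, the storage lipid of this yeast. The count table identifies nuclear genes by locus tag only, and no reference table used here names these tags. The gene names below are published assignments of the tags, which could not be tested against a table, and this limits every statement about a named gene.

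The 5 libraries held between 12889478 and 17519857 counts each. Levels are given as CPM, the share of each library's counts scaled between libraries by the TMM method, and describe the makeup of the RNA and not the amount per cell. A gene was called at a Benjamini-Hochberg adjusted p under 0.05 in edgeR's quasi-likelihood test over 6301 tested genes. Log2 values are the mutant minus the wild type, ± the standard error.

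The untreated mutant libraries differed more from each other than did wild-type replicates 1 and 3. The log2 CPM of the 2 mutant libraries correlated at r = 0.956 over genes. Between them 446 tested genes were over 2-fold higher in replicate 1 and 207 over 2-fold higher in replicate 2. Wild-type replicates 1 and 3 had 132 such genes, while wild-type replicate 2 had 693 and 508 against replicates 1 and 3. Wild-type replicate 2 also held the most small noncoding RNA, with a summed 90.7 CPM over the noncoding RNA genes that the table names, against 37.5 and 31.9 CPM in wild-type replicates 1 and 3 and 33.1 and 14.9 CPM in the mutant. Its mitochondrial messenger RNAs were the lowest, with a summed 12.8 CPM against 22.7 to 34.7 CPM in the other 4 untreated libraries. The part of these differences in the results was not tested beyond leaving out each library in turn, as given below.

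**Figure D1:**
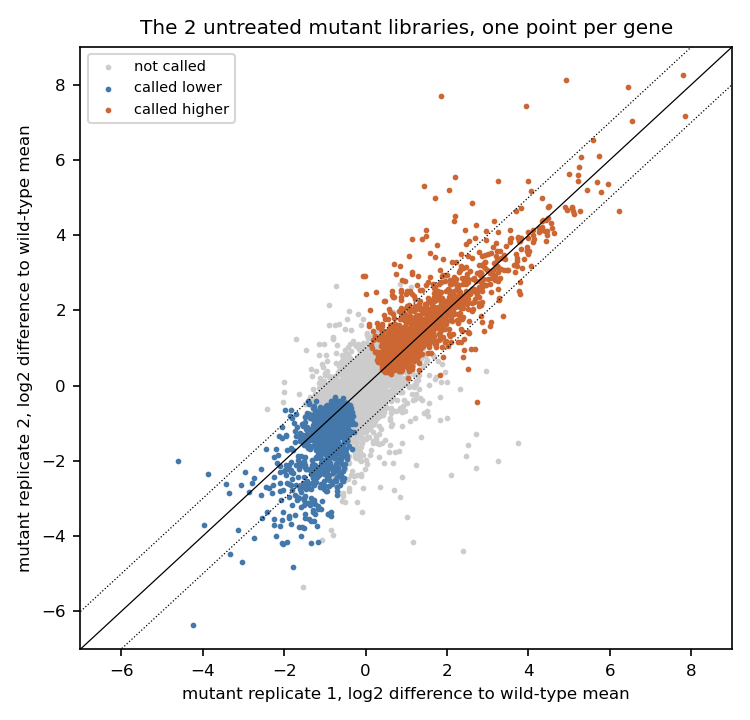
Each point is 1 tested gene, with its log2 difference to the untreated wild-type mean in mutant replicate 1 (x axis) and mutant replicate 2 (y axis); the solid line marks equality and the dotted lines a 2-fold gap. Most called genes lie between the dotted lines, and 185 genes called lower sit over 2-fold lower in replicate 2 than in replicate 1.

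In all, 2402 genes were called, 38.1% of those tested. Of these 1437 were higher in the mutant (22.8% of the genes tested) and 965 lower (15.3%). At least 2-fold apart were 1505 of the called genes (23.9% of those tested), and DESeq2 called 2704 genes (42.9%). The higher genes had the larger differences: 149 genes were higher by at least 8-fold and 10 lower by that much, and at 4-fold the numbers were 375 and 99. For 2383 of the called genes the mutant and wild-type libraries did not overlap, but this held for 59.8% of all genes tested (30.7% with the mutant higher and 29.1% with it lower). The median log2 difference of all tested genes was −0.03. Without mutant replicate 2 the total was 1375, with 986 higher and 389 lower.

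The altered genes were examined first. PEX10 (YALI0_C01023g) stood at 12.3, 20.5 and 13.7 CPM in the wild-type libraries and at 5.01 and 7.35 CPM in the mutant. The groups did not overlap, and both mutant libraries still held PEX10 reads, 66 and 115 of them, against 164 to 314 in the wild type. The log2 difference was −1.32 ± 0.34 (adjusted p = 0.00963, edgeR), and without mutant replicate 1 it was −1.08 and not called (adjusted p = 0.0712). The labels do not say which part of the gene was deleted.

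DGA1 (YALI0_E32769g) stood at 152.5, 227.3 and 184.2 CPM in the wild type and at 3221 and 3284 CPM in the mutant. The mutant libraries were close to each other and far above all wild-type libraries, with a log2 difference of 4.11 ± 0.40 (adjusted p = 1.91e-05, edgeR). The counts do not separate the chromosomal copy from the plasmid copy.

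Genes beside the altered loci were read in locus tag order, 3 on each side. After DGA1, the next 2 genes were higher in the mutant, by 1.31 ± 0.32 and 1.20 ± 0.25, and the third is POX1, an acyl-CoA oxidase gene, at 0.88 ± 0.33, which did not pass in edgeR (adjusted p = 0.0555) but did with DESeq2 (adjusted p = 0.0344) and without wild-type replicate 1 (1.17). The first of these was not called without mutant replicate 2 (0.93). Before DGA1, the nearest 3 genes lay at −0.70 ± 0.38, 0.79 ± 0.27 and 0.50 ± 0.21, and of these the second passed, though not without either mutant library (0.77 and 0.82) or without wild-type replicates 1 (0.57) or 3 (0.70). Beside PEX10, the gene directly after it was at −0.05 ± 0.18 and did not pass. The gene directly before PEX10 had at most 4.41 CPM and overlapping groups, and its call (1.87 ± 0.66) was lost without mutant replicate 2 (0.21) and without wild-type replicates 1 (1.76) or 3 (1.56). The second gene before PEX10 was at −0.61 ± 0.57 and did not pass, and the second after it was removed by the filter. The third gene on either side of PEX10 was lower in the mutant, by −1.35 ± 0.20 and −2.74 ± 0.57.

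**Figure D2:**
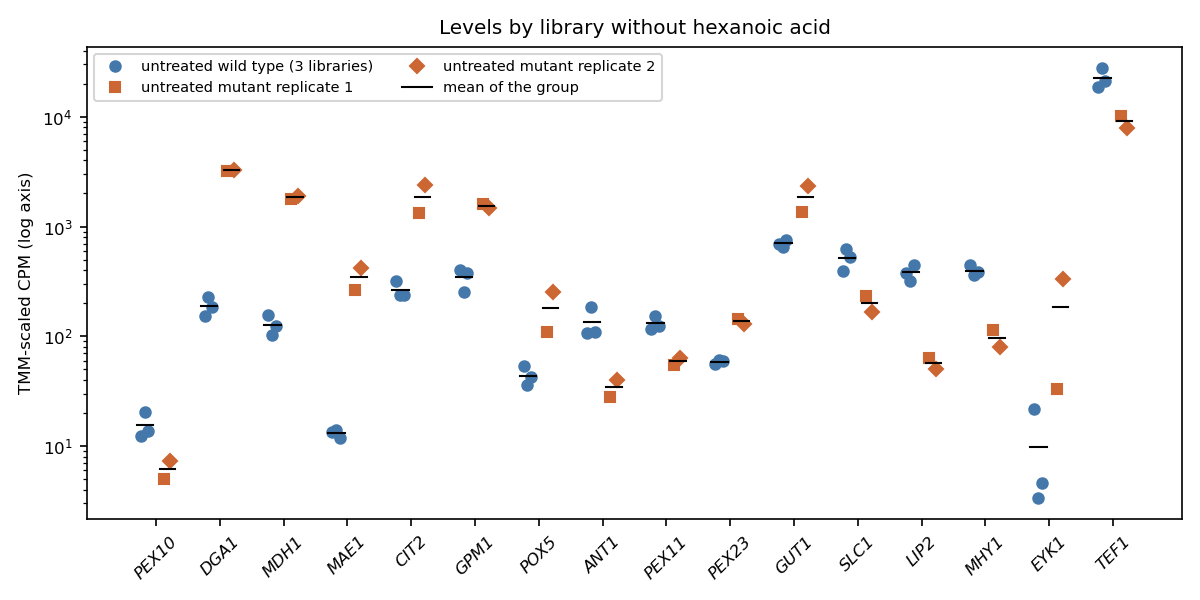
TMM-scaled CPM (log axis) of 16 genes in the 3 untreated wild-type libraries (circles) and the 2 untreated mutant libraries (square and diamond), with group means as lines. DGA1 and MDH1 separate the groups widely with close replicates, while EYK1 has 1 mutant library at 32.8 CPM and the other at 334.9 CPM.

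Peroxins build peroxisomes and import their enzymes. The gene lists here and below were trimmed after values of a longer list had been seen, so their counts only describe them. Of 13 listed peroxins other than PEX10, 5 were lower, 2 higher and 6 not called, where 15.3% of all genes tested were lower and 22.8% higher. Their median log2 difference was −0.65, against −0.03 over all genes tested. PEX11, which acts in peroxisome proliferation, stood at 117.3, 154.5 and 124.9 CPM in the wild type and 54.6 and 63.4 CPM in the mutant, a difference of −1.16 ± 0.22. PEX5, the import receptor of most matrix enzymes, stood at 216.8, 180.2 and 239 CPM against 111.3 and 123 CPM, a difference of −0.86 ± 0.20. For both genes the mutant libraries lay below every wild-type library, as held for 29.1% of all genes tested.

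The remaining peroxins called lower had smaller differences, between −0.65 and −0.83. They were PEX3, a membrane anchor for membrane protein insertion, and PEX13 and PEX14, which form the docking site of the receptor. Scaling by total counts left 3 of the 5 lower peroxins called, and a fit to only the 5 untreated libraries left 2. PEX3 lost its call without mutant replicate 2 (−0.54) or wild-type replicate 2 (−0.50), and PEX13 without mutant replicate 1 (−0.41) or wild-type replicate 1 (−0.74). PEX2, a RING-finger partner of PEX10, did not pass, at −0.81 ± 0.34. The higher pair consisted of PEX23, at 56.1, 60.5 and 59.4 CPM against 142.6 and 130.3 CPM, and PEX29, at 9.91, 7.25 and 15.5 CPM against 40.0 and 43.1 CPM. Both encode membrane proteins.

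Of 11 listed beta-oxidation genes 3 were lower, 1 higher and 7 not called, with a median of −0.27. The 4 called genes are a share near the 38.1% of all genes tested that were called. POX5, an acyl-CoA oxidase of the first step, stood at 53.1, 36.2 and 42.4 CPM in the wild type and 109.8 and 251.3 CPM in the mutant (2.04 ± 0.31), above the wild type in both libraries. ANT1, the peroxisomal adenine nucleotide carrier, stood at 107.5, 185.7 and 109.5 CPM against 28.3 and 40.3 CPM (−1.97 ± 0.34), with no overlap.

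The other beta-oxidation calls were small. POX3, a further acyl-CoA oxidase, differed by −0.76 ± 0.27 and PXA1, a subunit of the transporter of fatty acyl groups into peroxisomes, by −0.62 ± 0.22. Scaling by total counts ended both of these calls. So did leaving out mutant replicate 1 (POX3 −0.42, PXA1 −0.52) or wild-type replicate 2 (−0.70 and −0.36). POX3 was also lost without wild-type replicates 1 (−0.80) or 3 (−0.79), and PXA1 without mutant replicate 2 (−0.72). MFE1, the multifunctional enzyme of the middle steps, stood at 590.6, 467.9 and 644.9 CPM against 743.4 and 976.5 CPM and did not pass (0.60 ± 0.23, adjusted p = 0.0603), although DESeq2 called it (adjusted p = 0.0263). It also passed without mutant replicate 1 (0.78, adjusted p = 0.0445, edgeR). POT1, the thiolase of the last step, stood at 26.1 and 69.4 CPM in the mutant against 67.4 to 96.5 CPM. It did not pass with all libraries (−0.78 ± 0.35) and did without mutant replicate 2 (−1.65).

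Genes of fatty acid activation and of oxidation at other sites follow. FAT1, of the fatty acid transport and activation family, stood at 219.9, 200.5 and 213.5 CPM against 50.4 and 81.1 CPM (−1.68 ± 0.32), while the acyl-CoA synthetase FAA1 did not pass (−0.44 ± 0.22). Among 12 CYP52 cytochromes P450, which hydroxylate alkanes and fatty acids, 3 were lower, 2 higher and 7 not called, also near the 38.1% called among all genes tested. ALK3 had 45.5, 105.9 and 55.9 CPM against 8.81 and 9.02 CPM (−2.95 ± 0.36), and ALK5 had 13.3 to 19.2 CPM against 6.61 and 5.82 CPM (−1.32 ± 0.29). ALK6 and ALK11 were higher, at 1.80 ± 0.37 and 1.86 ± 0.47, but neither was called without mutant replicate 2 (0.67 and 1.76). ALK1 (−1.16 ± 0.40) lost its call without either mutant replicate (−1.13 and −1.19), without wild-type replicates 2 (−1.21) or 3 (−0.99), and under scaling by total counts.

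Among 5 genes of alcohol oxidation 2 were higher and none lower (22.8% and 15.3% of all genes tested), both alcohol dehydrogenases. ADH3 stood at 23.0, 22.5 and 23.2 CPM in the wild type and 91.8 and 75.4 CPM in the mutant (1.87 ± 0.28). ADH2 stood at 29.5, 30.2 and 29.7 CPM against 101.5 and 400.5 CPM (3.07 ± 0.40). The wild-type libraries lay within 1 CPM of each other for both genes, whereas the mutant libraries were far apart for ADH2.

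**Figure D3:**
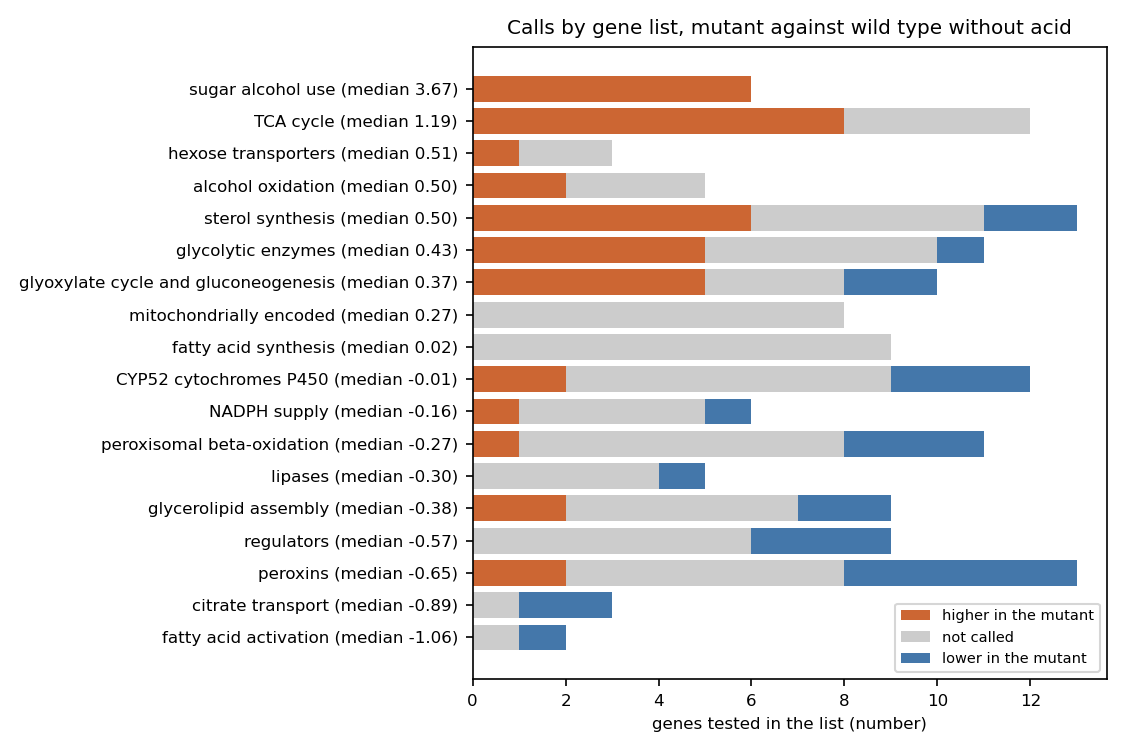
Number of tested genes in each list that were higher, lower or not called in the untreated mutant against the untreated wild type, with the median log2 difference of the list in brackets. The TCA cycle list has 8 of 12 genes higher, the peroxins 5 of 13 lower, and none of the 9 fatty acid synthesis genes was called. Over all genes tested 22.8% were higher, 15.3% lower and 38.1% called. The lists were trimmed after values had been seen, so the counts only describe them.

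The TCA cycle, the mitochondrial oxidation of acetyl-CoA, had 8 of 12 genes higher and none lower, where 22.8% and 15.3% of all genes tested were. Its median was 1.19, against −0.03 over all genes tested. Like the other lists, it was trimmed after values had been seen, so its count and median only describe it. The called genes covered the cycle from CIT1 to MDH1 except ACO1 (aconitase), KGD2 (a subunit of oxoglutarate dehydrogenase) and succinate dehydrogenase. MDH1, malate dehydrogenase, stood at 154.7, 102.8 and 124.3 CPM against 1776 and 1911 CPM, a log2 difference of 3.86 ± 0.23. CIT1, citrate synthase, stood at 76.0, 123.8 and 97.7 CPM against 339.5 and 401.8 CPM, and FUM1, fumarase, at 181.3, 260.2 and 187.5 CPM against 539 and 790.2 CPM. In each of these genes the groups were far apart.

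In the middle of the cycle, IDH1 and IDH2, the subunits of isocitrate dehydrogenase, differed by 1.58 ± 0.23 and 1.62 ± 0.22. LSC1, a subunit of succinyl-CoA ligase, was at 289.2, 319.5 and 296.2 CPM against 789.8 and 698.9 CPM (1.30 ± 0.18). Its partner LSC2 was only 0.63 ± 0.19 higher. The LSC2 call was lost without either mutant library (0.62 and 0.64) and without wild-type replicates 1 (0.56) or 3 (0.56). SDH1, of succinate dehydrogenase, had 188.1, 250.3 and 218.1 CPM against 114.5 and 150.6 CPM and did not pass in edgeR (−0.72 ± 0.27, adjusted p = 0.0506), though it did with DESeq2 (adjusted p = 0.0306). It also passed without wild-type replicate 1 (−0.82).

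Among 10 genes of the glyoxylate cycle and gluconeogenesis 5 were higher and 2 lower (22.8% and 15.3% of all genes tested), with a median of 0.37. CIT2, a second citrate synthase, had 316.2, 237.1 and 236 CPM against 1326 and 2369 CPM (2.81 ± 0.27), and MDH2, a second malate dehydrogenase, had 146.1 to 170.3 CPM against 433.5 and 504.7 CPM (1.57 ± 0.21). The pair of enzymes that define the glyoxylate cycle differed in direction. ICL1, isocitrate lyase, had 3293, 2905 and 3576 CPM against 1588 and 1072 CPM (−1.29 ± 0.26), while MLS1, malate synthase, had 58.1, 73.8 and 49.9 CPM against 156 and 176.9 CPM (1.46 ± 0.28).

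The other called members of that list were MLS2, FBP1 (fructose bisphosphatase) and PYC1 (pyruvate carboxylase), at 0.87 ± 0.30, 0.59 ± 0.19 and −0.65 ± 0.22. Each was lost without mutant replicate 2 (0.24, 0.49 and −0.49) and without wild-type replicates 1 (0.88, 0.51 and −0.70) or 3 (0.92, 0.58 and −0.60), and MLS2 also without wild-type replicate 2 (0.80). PCK1, the first committed enzyme of gluconeogenesis, had 125.2 CPM in one mutant library and 488 CPM in the other, on either side of the wild-type range of 246 to 298.7 CPM.

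Of 11 glycolytic enzymes 5 were higher and 1 lower (22.8% and 15.3% of all genes tested), with a median of 0.43. GPM1, phosphoglycerate mutase, stood at 399.3, 251.4 and 380.1 CPM against 1614 and 1474 CPM (2.17 ± 0.26). PGK1, phosphoglycerate kinase, stood at 150.7, 229.3 and 151.1 CPM against 737.7 and 679.8 CPM (2.001 ± 0.22). FBA1, the aldolase, stood at 230.7, 390.6 and 285.3 CPM against 1034 and 1085 CPM (1.81 ± 0.23), and PFK1, phosphofructokinase, at 353 to 424.5 CPM against 841 and 835.8 CPM (1.10 ± 0.21). In these genes the mutant replicates were close to each other. They lay above every wild-type library, as held for 30.7% of all genes tested.

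The remaining glycolytic enzymes differed less. HXK1 and TPI1 did not pass in edgeR (0.40 ± 0.20 and 0.43 ± 0.19). Their mutant libraries lay above every wild-type library, as held for 30.7% of all genes tested. ENO1 (enolase) and PYK1 (pyruvate kinase) did not pass, at 0.06 ± 0.25 and −0.07 ± 0.27, nor did PGI1 (glucose phosphate isomerase, 0.00 ± 0.25). GLK1, glucokinase, was lower at −0.91 ± 0.30, a call lost without mutant replicate 2 (−0.51) and without wild-type replicates 2 (−0.70) or 3 (−0.94). GAP1, glyceraldehyde phosphate dehydrogenase, was 0.77 ± 0.22 higher and lost its call without mutant replicate 1 (0.58) or wild-type replicate 1 (0.69). Of 3 hexose transporters only YHT4 was called (2.45 ± 0.51), where 38.1% of all genes tested were. It had 148.8 to 176.5 CPM in the wild type but 257.9 and 1476 CPM in the mutant, and without mutant replicate 2 it was at 0.70 and not called.

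**Figure D4:**
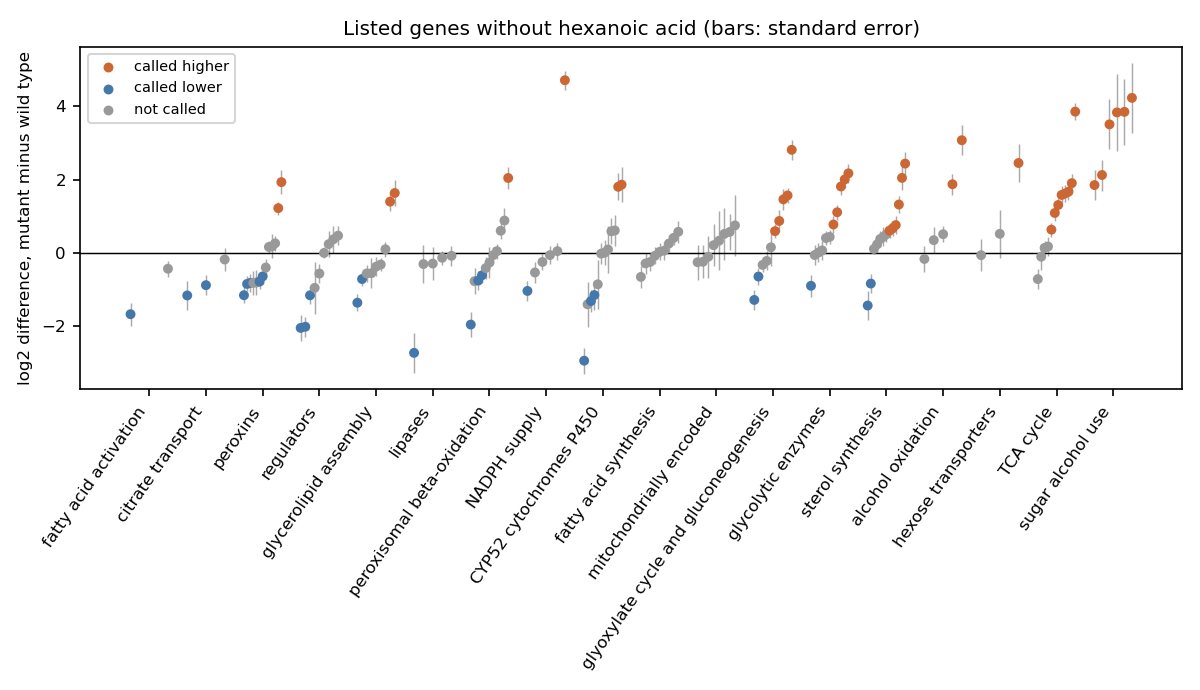
Log2 difference between mutant and wild type without acid for each tested gene of each list, with bars for the standard error and colours for the edgeR call. The spread within most lists is wide, with genes of the same pathway on both sides of 0, and the fatty acid synthesis genes lie between −0.66 and 0.57.

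No fatty acid synthesis gene was called, 0 of 9 in edgeR (2 at an unadjusted p under 0.05) and 0 with DESeq2. Over all genes tested the shares called were 38.1% in edgeR and 42.9% with DESeq2. FAS1 and FAS2, the fatty acid synthase subunits, and ACC1 (YALI0_C11407g), acetyl-CoA carboxylase, had log2 differences of 0.06 ± 0.25, 0.02 ± 0.24 and 0.25 ± 0.23. The ATP citrate lyase subunits, which make cytosolic acetyl-CoA, differed between the mutant libraries. ACL1 had 2265 CPM in mutant replicate 1 and 1162 CPM in replicate 2, and ACL2 had 1920 and 986.4 CPM, against 1796 to 2499 and 2027 to 2661 CPM in the wild type. Without mutant replicate 1, ACL2 was called lower (−1.22, adjusted p = 0.0139, edgeR).

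CTP1 and YHM2, carriers that export citrate from mitochondria, the source of that acetyl-CoA, were also lower in mutant replicate 2 than in replicate 1. That order was common, with 446 tested genes over 2-fold higher in replicate 1 and 207 in replicate 2. The citrate transport list was settled after values of these data had been seen. CTP1 had 418 to 475.1 CPM in the wild type and 337.2 and 148.8 CPM in the mutant (−0.89 ± 0.28), and YHM2 had 641.4 to 1044 CPM against 562.3 and 199.9 CPM (−1.17 ± 0.40). Both calls were lost without mutant replicate 2 (−0.42 and −0.61) and without wild-type replicate 3 (−0.85 and −1.01), that of YHM2 also without wild-type replicate 1 (−1.15), and both in a fit to only the untreated libraries. CEX1, a citrate exporter of the plasma membrane, did not pass (−0.19 ± 0.30).

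In glycerolipid assembly, the route that ends with the step of DGA1, 2 of 9 genes were higher and 2 lower, near the 22.8% and 15.3% of all genes tested. GUT1, glycerol kinase, had 695.5, 655.1 and 760.9 CPM against 1344 and 2358 CPM (1.40 ± 0.26). ARE1, a sterol acyltransferase, had 72.9 to 99.9 CPM against 201.4 and 352.9 CPM (1.63 ± 0.36), a call lost without mutant replicate 2 (1.17). The genes called lower encode the acyltransferases of the first steps. SLC1 had 396.9, 620.7 and 530.9 CPM against 232.4 and 167.4 CPM (−1.37 ± 0.23), and SCT1 had 379.3 to 494.1 CPM against 274.9 and 275.1 CPM (−0.72 ± 0.20), a call lost without either mutant library (−0.72 in each case).

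DGA2 and LRO1, which encode other enzymes of the last step of triacylglycerol synthesis, did not pass, at −0.56 ± 0.42 and −0.32 ± 0.18. Among 5 lipases 1 was lower and none higher, where 15.3% and 22.8% of all genes tested were. It was LIP2, the main extracellular lipase, with 375.5, 319.7 and 448.9 CPM against 64.0 and 50.3 CPM (−2.74 ± 0.54). The intracellular lipases TGL3 and TGL4 did not pass, at −0.09 ± 0.27 and −0.14 ± 0.19.

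The list of NADPH supply had 1 of 6 genes higher and 1 lower (22.8% and 15.3% of all genes tested). MAE1, malic enzyme, had 13.44, 13.97 and 11.82 CPM in the wild type and 265.2 and 421.8 CPM in the mutant (4.715 ± 0.26), with the mutant far above the wild type in both libraries. Whether malic enzyme supplies NADPH in these cultures was not tested. GND1, 6-phosphogluconate dehydrogenase, had 6038, 10085 and 7112 CPM against 4540 and 2955 CPM (−1.05 ± 0.28), a call lost without mutant replicate 2 (−0.77) and in the fit to the untreated libraries alone (−1.05). TKL and TAL, transketolase and transaldolase, did not pass (−0.07 ± 0.25 and −0.25 ± 0.21). Nor did ZWF1 and IDP in edgeR with all libraries (−0.54 ± 0.29 and 0.04 ± 0.24).

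The sugar alcohol list was settled after values of these data had been seen, so its count only describes it. All 6 listed genes of sugar alcohol use were called higher, where 22.8% of all genes tested were. For 5 of them, which are neighbours by locus tag (EUF1, EYI1, EYK1, EYI2 and EYD1, the regulator and the enzymes of erythritol breakdown), mutant replicate 2 was far above replicate 1. EYK1, erythrulose kinase, had 21.6, 3.40 and 4.61 CPM in the wild type and 32.8 and 334.9 CPM in the mutant. EYD1, erythritol dehydrogenase, had 50.4, 5.94 and 11.4 CPM against 41.2 and 600.3 CPM, so that mutant replicate 1 lay within the wild-type range. Without mutant replicate 2, none of the 6 was called, with EUF1 at 0.82, EYI1 at 1.94, EYK1 at 1.75, EYI2 at 1.43, EYD1 at 0.88 and SDR, mannitol dehydrogenase, at 1.24. EYD1 was also lost without wild-type replicate 3 (3.51).

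Sterol synthesis had 6 of 13 genes higher and 2 lower, against 22.8% and 15.3% of all genes tested, with a median of 0.50. ERG6, the sterol methyltransferase of the late pathway, had 20.6, 27.5 and 12.1 CPM against 112.7 and 104.3 CPM (2.44 ± 0.31). ERG13, HMG-CoA synthase, had 13.3 to 18.5 CPM against 72.5 and 61.7 CPM (2.04 ± 0.32), and ERG12, mevalonate kinase, had 6.53 to 7.81 CPM against 14.7 and 20.8 CPM (1.32 ± 0.24). HMG1, HMG-CoA reductase, did not pass (0.22 ± 0.21).

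IDI1, isopentenyl diphosphate isomerase, was lower (−1.45 ± 0.39) and ERG8, phosphomevalonate kinase, was at −0.85 ± 0.25. Both were lost without mutant replicate 2 (−1.09 and −1.01), and ERG8 also without replicate 1 (−0.69). The other higher calls, ERG10, ERG9 and ERG1, were below 1 on the log2 scale. The ERG10 call (0.75) ended when either mutant library (0.60 and 0.89) or wild-type replicate 1 (0.65) or 3 (0.69) was left out. That of ERG9 (0.66) ended without either mutant library (0.56 and 0.76) or wild-type replicate 2 (0.62) or 3 (0.59), and that of ERG1 (0.60) without mutant replicate 2 (0.24) or wild-type replicate 2 (0.54) or 3 (0.58).

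Among 9 regulators 3 were lower and none higher (15.3% and 22.8% of all genes tested), with a median of −0.57. MHY1 and HOY1, both known for roles in the switch between yeast and hyphal growth, had 442.8, 362.4 and 382.2 against 114.8 and 79.5 CPM, and 345.6, 322.2 and 537 against 110.4 and 82.5 CPM. Their log2 differences were −2.03 ± 0.28 and −2.06 ± 0.36. POR1, a regulator of fatty acid use, had 221 to 320.1 CPM against 143.9 and 93.5 CPM (−1.17 ± 0.24). YAS1, YAS2 and YAS3, which control the alkane response, did not pass in edgeR (0.23 ± 0.35, 0.37 ± 0.38 and −0.57 ± 0.26), and YAS3 passed with DESeq2 (adjusted p = 0.0453).

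TEF1 and ACT1, both often used as references, were not level between the strains. They belong to a list of 6 single genes that was settled after values had been seen. Of that list 3 were called, where 38.1% of all genes tested were. TEF1, translation elongation factor 1-alpha, had 18633, 27538 and 21390 CPM in the wild type and 10195 and 7935 CPM in the mutant (−1.31 ± 0.28). ACT1, actin, had 871.3, 652.1 and 887.2 CPM against 1662 and 1527 CPM (0.99 ± 0.21). The direction of both held under all scalings tried. PHD1, an enzyme of the methylcitrate cycle for propionyl-CoA, was 2.01 ± 0.27 higher. LEU2, a common selection marker, and NDH2, the alternative NADH dehydrogenase, did not pass (−0.09 ± 0.27 and 0.11 ± 0.23). Of 14 mitochondrially encoded protein genes 8 were tested and 0 called in edgeR, with 0 in DESeq2 and 0 at an unadjusted p under 0.05. Over all genes tested edgeR called 38.1%. Except atp9, the tested mitochondrial genes had at most 3.15 CPM in any untreated library, and standard errors ran from 0.45 to 0.84. At such levels a lack of calls does not show that they were unchanged.

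Outside the lists, no file or table used here pairs the tags with names. The largest log2 differences among genes with at least 10 CPM and no overlap were YALI0_E12507g and YALI0_C11165g, which were higher, and YALI0_E27247g and YALI0_B04202g, which were lower. YALI0_E12507g had at most 0.115 CPM in the wild type and 0.684 and 47.2 CPM in the mutant, and was not called without mutant replicate 2 (2.85). YALI0_E27247g had 251.8, 319.5 and 474.2 CPM against 17.8 and 3.96 CPM (−5.01 ± 0.69). YALI0_B04202g had 137.2, 18.4 and 30.6 CPM against 4.10 and 1.79 CPM (−4.41 ± 1.24), a call lost without mutant replicates 1 (−5.10) or 2 (−3.91). Only 1 gene had 3 or fewer counts in every wild-type library and at least 30 in both mutant libraries, and 0 genes showed the opposite.

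YALI0_C11165g took the most counts of any gene in both untreated mutant libraries. It had 240, 29.96 and 59.57 CPM in the wild type and 16743 and 23211 CPM in the mutant (7.51 ± 0.89), which was 1.67% and 2.53% of all counts of those libraries. It lay in the longest run of neighbouring genes with higher levels. Read in locus tag order, 19 consecutive tested genes of chromosome C, from YALI0_C10901g to YALI0_C11385g, the last before ACC1, were at least 0.5 above the wild-type mean on the log2 scale in both mutant libraries. The next longest such run had 7 genes, and the longest run lower by as much had 6. A further higher run, of 5 genes, began with DGA1 and ended with YALI0_E32857g. The 19-gene run was found by looking through the data and has no test.

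Of its 19 genes 17 were called higher and in all 19 the mutant libraries lay above every wild-type library, against 22.8% and 30.7% of all genes tested. Since the run was chosen for raised levels in these same libraries, both counts only describe it. Fitted log2 differences ran from 0.83 to 7.51 with a median of 2.07. The library medians over the run, against the wild-type mean, were 2.09 and 1.91 in the mutant and −0.11 to −0.01 in the wild type. The 10 tested genes before the run had medians of −0.09 in both mutant libraries, and the 10 after it, starting with ACC1, −0.29 and −0.15. Across other chromosomes, the highest median over 15 neighbouring genes was 1.21 in mutant replicate 1 and 1.59 in replicate 2, both on chromosome E, against 2.34 and 2.27 on chromosome C.

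**Figure D5:**
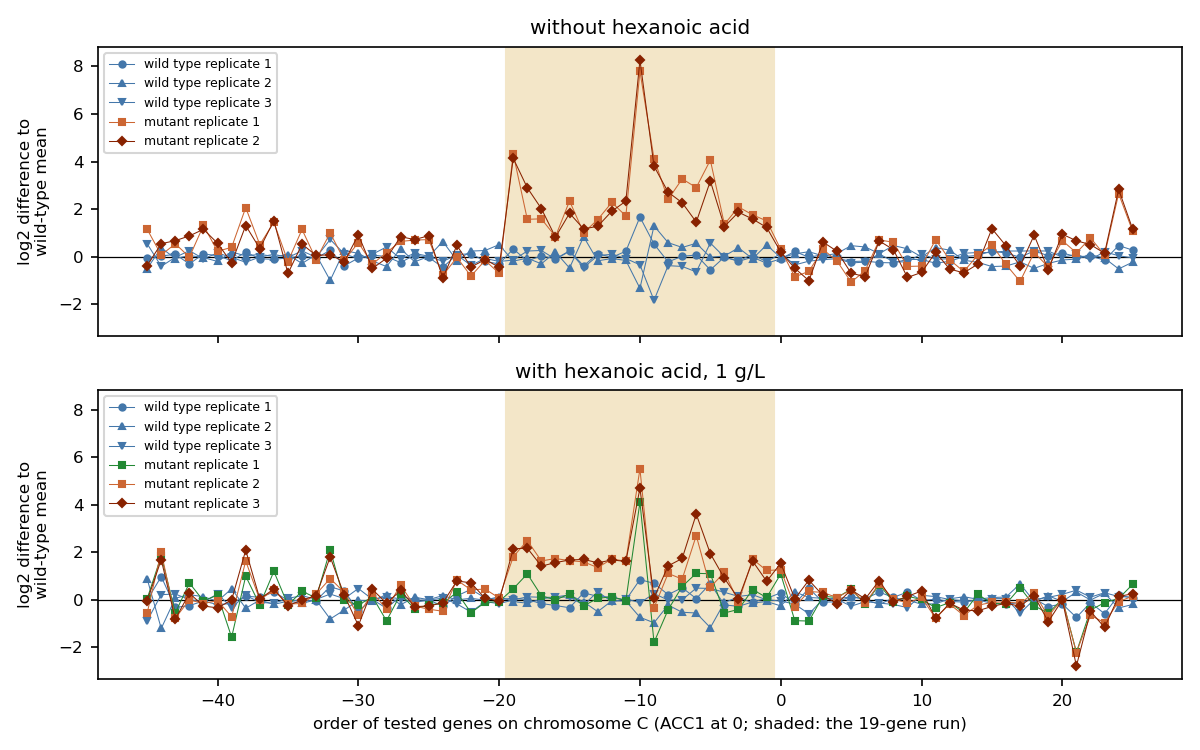
Log2 difference of each library to the wild-type mean of its own condition, by order of tested genes on chromosome C with ACC1 at 0 and the 19-gene run shaded; upper panel without and lower panel with 1 g/L hexanoic acid. Both untreated mutant libraries stand above 0 at every gene of the run (medians 2.09 and 1.91), treated mutant replicates 2 and 3 at most of its genes (1.63 each), and treated mutant replicate 1 has a median of 0.13.

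Calls were spread over all 6 chromosomes. The share of tested genes called higher ran from 21.2% on chromosome B to 24.6% on chromosome A, and the share called lower from 13.3% on chromosome E to 18.5% on chromosome B.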

How the data were processed

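RNA was sequenced from 11 cultures, and the 5 untreated ones are compared here. Per the submitters' processing notes, the tools were STAR 2.7.9a and HTSeq 0.11.0, with FastQC 0.11.7, SAMtools 1.9 and DESeq2 1.32.0; genome build, annotation and strand setting are not named, so overlapping genes and near-identical copies are not separated. The authors deposited raw counts per gene, which were used for all tests, and a normalized table that was not used. Replicates are separate colonies per the labels.

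Tests used edgeR 4.0.16 and limma 3.58.1 under R 4.3.3, with TMM scaling, filterByExpr on the 4 groups (834 of 7135 genes removed), 1 mean per group over all 11 libraries, and the robust quasi-likelihood fit. The common biological coefficient of variation was 23.8%. A standard error is the absolute log2 difference divided by the square root of F. Levels are TMM-scaled CPM. DESeq2 1.42.0, other scalings and filters, a fit to the 5 untreated libraries, replicate blocks and leaving out each library were alternatives.

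The members, gene lists and alternatives were chosen with earlier results of these data known, and lists were trimmed to tags whose published assignment was held with confidence after values of a longer list had been seen; the sugar alcohol, citrate transport and single-gene lists were also settled then. The 0.5 limit of the run and the 15-gene window were chosen after seeing the data. Named genes were PEX10, DGA1 and their 3 neighbours on each side, the 2 largest differences each way, the largest CPM differences where a name was known, and in each list up to 4 called and 2 uncalled members. Other listed genes in the text were chosen after their values were seen. The tags matched 0 entries of the RefSeq table, so lists by gene description were not built and no sequences are shown. A few peroxin results are not reported here.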

Additional observations from a re-analysis of the deposited data

Results flagged for a closer look

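The 19-gene run before ACC1 was also looked at in the libraries with hexanoic acid, which the comparison itself does not use. Against the mean of the treated wild type, its median log2 difference was 1.63 in treated mutant replicate 2 and 1.63 in treated mutant replicate 3, above the treated wild-type libraries (−0.11 to 0.11). In both, 17 of the 19 genes were at least 0.5 higher. Treated mutant replicate 1 had a median of 0.13, with 5 of the 19 genes at least 0.5 higher. The same library had the highest DGA1 level, 7807 CPM, against 3412 and 3012 CPM in treated replicates 2 and 3 and 3221 and 3284 CPM in the untreated mutant. YALI0_C11165g was at 10041 CPM in it, against 26485 and 15065 CPM in the other treated mutant libraries and 351 to 1052 CPM in the treated wild type. DNA copy number was not measured in these libraries.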

How the results depend on the processing

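The total of 2402 called genes lay between 1693 and 2704 under the other scalings, filters, fits and the DESeq2 test, and the number higher (1437) between 1087 and 1515. The number lower (965) was 606 in a fit to only the 5 untreated libraries. Leaving out 1 library gave totals of 1375 to 2255, with 986 to 1412 higher and 389 to 863 lower, the lowest values without mutant replicate 2. The share of calls that were higher was 59.8%, 64.5% with total counts only and 71.7% without mutant replicate 2. PEX10 ran from −1.63 to −1.07 when 1 library was left out and was lost without mutant replicate 1, and DGA1 ran from 3.98 to 4.27 and was called in every alternative. Of 90 called genes followed by name or neighbourhood, 54 kept their call under every alternative, 36 lost it under at least 1 and 0 reversed, with 32 lost without mutant replicate 2, 21 in the fit to 5 libraries and 0 with DESeq2. Of 87 uncalled ones, 16 passed under at least 1. A replicate block gave 2061 calls by title number and 2140 by description number, and SDH1 passed under both (−0.74 and −0.83). Groups share only 2 numbers, and nothing shows that the numbers pair cultures. Deviations of same-numbered libraries correlated at −0.16 and −0.12 by title and 0.12 and 0.00 by description. Deviations of the 2 mutant libraries from their mean mirror each other, so these correlations are not separate values and cannot decide on pairing. With 2 mutant libraries, each estimate for the mutant rests on few cultures.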
